A study of Rattus norvegicus with 9 samples.

Results

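Expression of the kinase gene Mapk3 and of 8 genes for feedback inhibitors of the ERK pathway was measured by RNA sequencing in rat medial prefrontal cortex. The genes were chosen by symbol as Mapk3, Dusp1, Dusp4, Dusp5, Dusp6, Spry2, Spry4, Spred1 and Errfi1. All 9 were found in the count table, which lists 37991 genes, and all 9 were among the 18047 genes with enough counts to be tested. The animals were Wistar Kyoto rats, an inbred strain with high immobility in tests of behavioural despair, and all libraries were taken on day 15. Control rats were left untreated. K4, a compound known here by its code alone, was given through an intravenous cannula for 7 days, and ketamine, an NMDA receptor antagonist, was given under the skin for 7 days, each followed by 7 days without it. The labels mention no cannula or injection in the Control rats, so drug, route and procedure cannot be told apart. Each group held 3 libraries, and the labels do not say whether each came from its own animal, so p-values measure the spread between these libraries, which may be technical.

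The ERK pathway carries signals from receptor tyrosine kinases, and in neurons also from synaptic calcium, through Ras, Raf and MEK to the ERK kinases, which phosphorylate cytoplasmic proteins and transcription factors. ERK activity induces genes that switch the pathway off again. Dual specificity phosphatases (Dusp) dephosphorylate the kinases, Sprouty and Spred proteins act between the receptor and Raf, and Errfi1 blocks receptors of the EGF receptor family. Because several of these genes are themselves induced by ERK, their transcripts are often read as a record of recent pathway activity, in cortex together with activity-regulated early genes such as Junb and Nr4a1. In bulk tissue, fewer cells of a type and less RNA per cell cannot be told apart.

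Promoter sequences of these genes were compared for matches to the letters of known control elements. RefSeq windows from assembly GRCr8 reach from 250 bases before to 50 bases after each start site, and 7 of the 9 genes matched by gene ID (Mapk3 and Dusp4 did not). They were searched on both strands for the cyclic AMP response element, or CRE (TGACGTCA), its core (TGACG), the ETS core (GGAA) and the serum response element, by name. Each CRE also counts as 2 overlapping matches to the core. The CRE was found in 1.83% of all 33469 windows of this length, its core in 21.2%, the ETS core in 95.8% and the serum response element in 1.64%. The 4 sequences that follow are the 250 bases before the start site, and were chosen because Dusp1 and Dusp6 varied most between libraries for their level, Dusp5 has a pair of rare elements, and Spred1 was the gene that passed the test. Capitals mark the CRE core in Dusp1, the serum response element in Dusp5, and the ETS core in Dusp6 and Spred1, on either strand.
Dusp1, chr10:17184603-17184852, plus strand: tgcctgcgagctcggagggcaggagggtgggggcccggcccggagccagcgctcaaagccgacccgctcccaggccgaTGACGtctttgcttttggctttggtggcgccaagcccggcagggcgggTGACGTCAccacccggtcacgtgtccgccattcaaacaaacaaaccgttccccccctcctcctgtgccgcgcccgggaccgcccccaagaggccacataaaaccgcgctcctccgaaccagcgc
Dusp5, chr1:262543524-262543773, plus strand: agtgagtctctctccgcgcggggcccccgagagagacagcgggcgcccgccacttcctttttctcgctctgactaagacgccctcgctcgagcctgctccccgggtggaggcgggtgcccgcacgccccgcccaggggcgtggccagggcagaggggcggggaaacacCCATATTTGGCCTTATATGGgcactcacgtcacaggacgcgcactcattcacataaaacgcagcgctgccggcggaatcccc
Dusp6, chr7:35979354-35979603, plus strand: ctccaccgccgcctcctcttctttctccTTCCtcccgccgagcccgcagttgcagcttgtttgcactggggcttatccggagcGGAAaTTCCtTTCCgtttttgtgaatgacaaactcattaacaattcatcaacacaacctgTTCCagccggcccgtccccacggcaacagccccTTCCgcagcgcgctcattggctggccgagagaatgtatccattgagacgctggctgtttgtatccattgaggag
Spred1, chr3:124436980-124437229, plus strand: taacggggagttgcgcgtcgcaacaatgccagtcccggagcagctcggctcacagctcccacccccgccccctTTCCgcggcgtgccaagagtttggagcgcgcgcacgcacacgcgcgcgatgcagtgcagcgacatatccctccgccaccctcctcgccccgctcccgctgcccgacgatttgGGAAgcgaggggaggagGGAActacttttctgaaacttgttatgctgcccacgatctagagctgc

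Dusp1 was the only one of the 7 genes with a full CRE in its window, beginning 124 bases before the start site, and a further core lies at 172 bases before it. Dusp5 alone held serum response elements, 2 of them, beginning 82 and 72 bases before the start site. Dusp6 had 6 matches to the ETS core and Spred1 had 3, none of either kind of rarer element. These matches are descriptions of letters in a window and say nothing of whether a factor binds there in cortex.

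Levels of the 9 genes were compared per transcript length with the deposited TPM (transcript abundance scaled to a common total). Mapk3, which encodes the kinase ERK1, was the highest in every group, at 166 ± 5.65 TPM in Control (SD, n = 3 libraries), 191 ± 17.1 in K4 and 197 ± 2.31 in Ketamine. Dusp5 was the lowest in every group, and its highest group mean was 3.41 TPM. Spred1 at 46.9 ± 6.40 TPM and Spry2 at 36.6 ± 5.10 TPM followed Mapk3 in Control. They were followed by Dusp1 at 25.4 ± 9.64 TPM, Dusp6 at 18.1 ± 2.89 TPM and Errfi1 at 14.7 ± 1.17 TPM. Spry4 at 5.53 ± 0.783 TPM, Dusp4 at 4.17 ± 0.293 TPM and Dusp5 at 2.60 ± 0.629 TPM closed the Control order. Neighbours in that order whose Control libraries overlapped were Spry2 with Dusp1, Dusp1 with Dusp6, and Dusp6 with Errfi1. The kinase thus stood above its inhibitors by a wide margin, and the inhibitors ranged from well expressed (Spred1, Spry2) to low (Dusp4, Dusp5). The order was different after treatment in that Spry2 had a higher mean TPM than Spred1 in both treated groups. Their libraries overlapped in Ketamine, and in K4 the lowest Spry2 library (44.86 TPM) was barely above the highest of Spred1 (44.79). In Ketamine the mean of Dusp1 was also above that of Spred1, at 42.2 ± 10.5 against 42.0 ± 3.55 TPM with libraries that overlapped. Spred1 and Spry2 differ in transcript length (8.75 and 2.59 kb), and the part of length in their order was not tested.

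**Figure D1:**
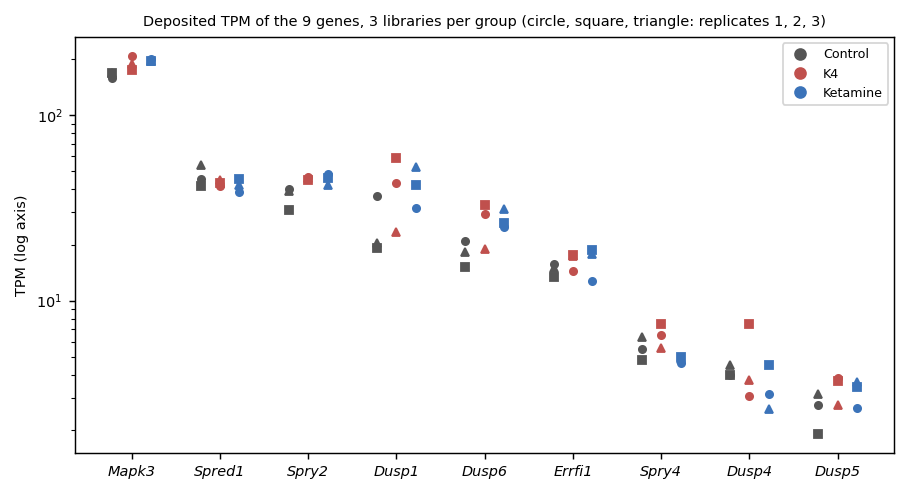
Deposited TPM on a log axis for each of the 9 genes (x axis, ordered by mean), with a point per library and colours for Control, K4 and Ketamine. Mapk3 lies above all others in every library. Dusp4 and Dusp5 have the lowest means, with Dusp4 in K4 replicate 2 (7.46 TPM) within the range of Spry4.

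Library totals ranged from 27122207 to 42731004 counts, and the 3 Control libraries were the deepest. The 13 mitochondrially encoded protein genes took 11.6% to 19.0% of the counts in Control libraries and 10.4% to 11.8% in treated libraries. Counts also depended on transcript length differently between libraries: the slope of log2 CPM (counts scaled to the library total) per doubling of length was 0.04 to 0.07 in Control, and -0.02 to 0.00 in K4 and -0.07 to -0.02 in Ketamine, so long transcripts read lower after treatment. The tissue label was checked against cortical markers: all 9 excitatory neuron markers were detected in every library, with a summed level of 2188 to 2781 CPM, while up to 4 of 6 choroid plexus markers were at 0. Of all genes tested, 3.8% were called lower and 2.27% higher after K4, and 9.75% lower and 6.95% higher after ketamine. Against Control, astrocyte markers were called lower in 2 of 9 cases for K4 and 6 of 9 for Ketamine, and endothelial and mural markers in 3 of 10 and 4 of 10. Summed astrocyte markers read 4160, 5820 and 3644 CPM in Control replicates 1 to 3. They ranged from 3289 to 3748 in K4 and 3150 to 3383 in Ketamine, and no marker of either list was at 0. Control replicate 2, the highest in this sum, also had the highest mitochondrial share (19.0%). Oligodendrocyte precursor markers were called lower in 1 of 7 and 4 of 7 cases, microglial markers in 1 of 8 and 3 of 8, and excitatory neuron markers in 2 of 9 and 4 of 9. Striatal neuron markers were called higher in 3 of 7 and 1 of 7 cases. Of 9 oligodendrocyte markers 1 was called higher after K4 and 1 lower after ketamine, of 8 interneuron markers 1 was called in each direction after ketamine, and no meningeal, choroid plexus or blood marker was called.

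For Spred1, an adaptor that brings the Ras inactivator neurofibromin to the membrane, expression was lower than Control after both compounds. It was the only one of the 9 genes to pass the test in either comparison. Counts of Spred1 (gene ID 296072) stood at 183, 195 and 201 CPM in Control replicates 1 to 3, at 149, 163 and 161 for K4 and at 146, 169 and 164 for Ketamine. Every treated library lay below every Control library, as 14.2% of genes tested did after K4 and 18.1% after ketamine, and the K4 and Ketamine libraries overlapped. After K4 the level fell from 193 ± 9.17 to 158 ± 7.65 CPM, a log2 fold change of -0.29 (SE 0.068, 95% interval -0.44 to -0.14), with an edgeR Benjamini-Hochberg adjusted p of 0.029. After ketamine it was 160 ± 12.3 CPM (log2 fold change -0.27, SE 0.068, interval -0.42 to -0.13, edgeR adjusted p = 0.017). The fall was therefore small, 1.22-fold after K4 and 1.21-fold after ketamine, and the log2 difference between K4 and Ketamine was -0.02 (interval -0.17 to 0.13).

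The Spred1 call did not hold with an offset for transcript length. Length slopes of Control and treated libraries did not overlap, so a length effect and a treatment effect cannot be told apart here. Spred1 has the longest transcript of the 9, 8.75 kb as implied by the deposited counts and FPKM, longer than 95.3% of genes tested. With an offset for each library's length trend its log2 fold change was -0.14 after K4 (interval -0.31 to 0.03, edgeR adjusted p = 0.35) and -0.03 after ketamine (interval -0.21 to 0.14, edgeR adjusted p = 0.84), so neither was called. In deposited TPM the libraries read 45.3, 41.5 and 54.0 for Control, 41.3, 43.2 and 44.8 for K4 and 38.3, 45.4 and 42.1 for Ketamine. On that scale the 3 groups overlapped, with Control replicate 3 alone above all the treated libraries. The deposited FPKM, also per length, did not overlap. They were 20.8, 20.7 and 23.6 for Control, 17.6, 18.7 and 18.9 for K4 and 16.9, 19.5 and 18.9 for Ketamine. On log2(FPKM + 1), limma called Spred1 in neither comparison. The call for K4 also ended in 5 of 9 refits with a single library dropped: without Control replicate 1 (edgeR adjusted p = 0.071), Control replicate 3 (0.057), or K4 replicate 1 (0.11), 2 (0.064) or 3 (0.086). The call for Ketamine ended without Ketamine replicate 1 (edgeR adjusted p = 0.060). In all of these refits the log2 fold change lay between -0.32 and -0.21. The median summed astrocyte marker level was 4160 CPM in Control, 3535 in K4 and 3372 in Ketamine, with Control and K4 libraries overlapping, and its part in the Spred1 values was not tested. RefSeq lists a pseudogene within the Spred1 locus (Eno1-ps25), and Dusp5 and Errfi1 overlap other genes (LOC134485251 and LOC102556316); the strand setting of the counting is not stated, so counts of these 3 genes are uncertain to that extent.

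**Figure D2:**
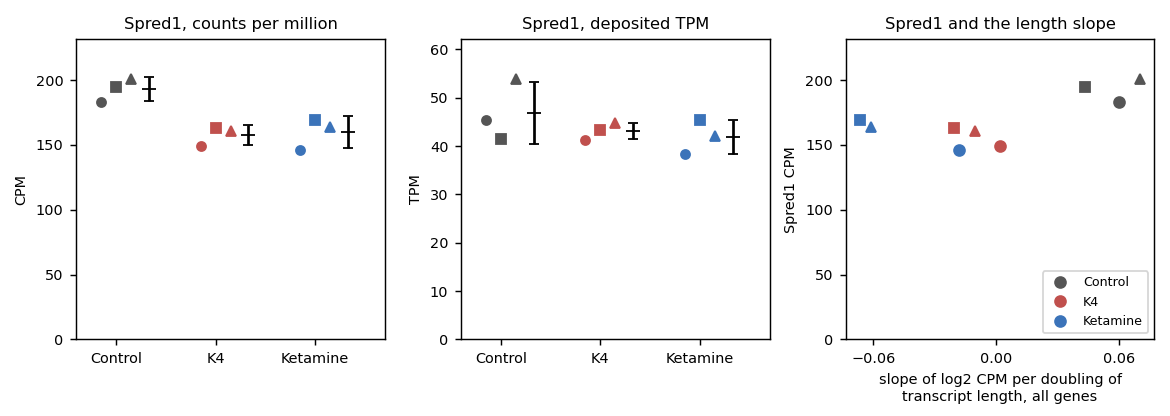
Spred1 in each library as CPM (left), as deposited TPM (middle), and as CPM against the library's slope of log2 CPM over transcript length (right); horizontal marks are group means with SD, n = 3. Treated libraries lie below Control in CPM, overlap it in TPM, and have lower length slopes.

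Counted over the 9 genes, 1 was called lower and none higher after K4, where 6.07% of all genes tested were called in either direction, 3.8% lower and 2.27% higher. After ketamine 1 was again called lower and none higher, against 16.7% of all genes called, 9.75% lower and 6.95% higher. With so few genes, 1 of 9 is near the share of all genes called in each comparison. At an unadjusted p below 0.05 there were 2 of 9 genes for K4 (Spry2 and Spred1) and 4 for Ketamine (Dusp6, Spry2, Spry4 and Spred1), beside 23.5% and 31.3% of all genes tested, and DESeq2 called 1 and 2, beside 10.5% and 19.5%. In the test of all 3 groups together Spred1 was called (edgeR adjusted p = 0.020), the other 8 were not, and 12.2% of all genes were. The median log2 fold change of the 9 was 0.08 after K4 and 0.11 after ketamine, beside 0.00 over all genes in both, and 0.14 and 0.04 with the length offset, beside 0.01 over all genes in both. K4 and Ketamine are both set against the same 3 Control libraries, so the values of these 2 comparisons are not independent.

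**Figure D3:**
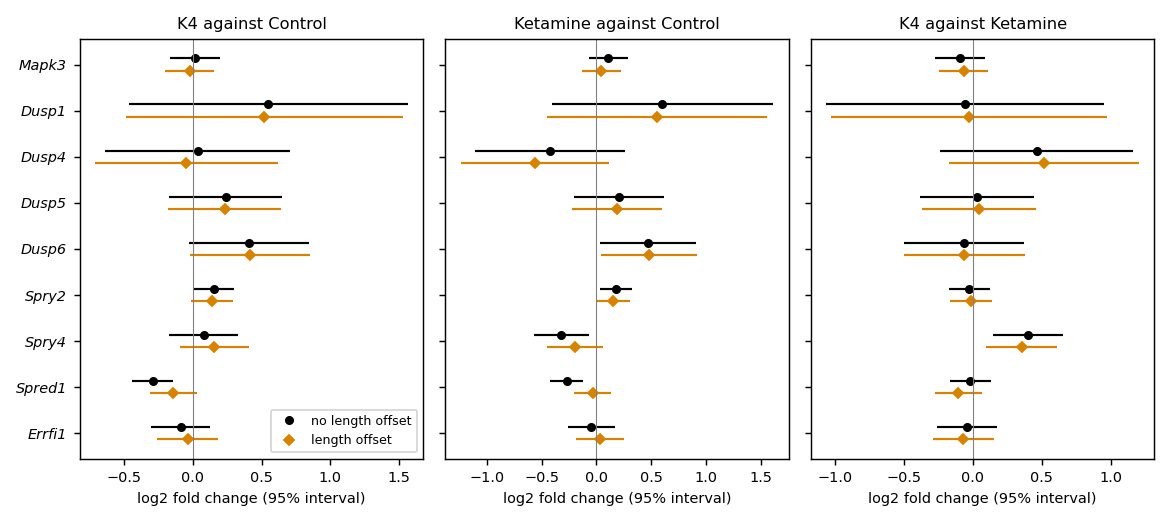
Log2 fold changes (points) with 95% intervals (lines) of the 9 genes in the 3 comparisons, without (black) and with (orange) an offset for transcript length. Intervals of Dusp1 and Dusp4 are the widest, and that of Spred1 excludes 0 against Control only without the offset.

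Mapk3 itself did not pass the test in any comparison. Its counts (gene ID 50689) were 149, 185 and 146 CPM in the Control libraries; the K4 libraries had 174, 155 and 156 CPM and those of Ketamine 176, 169 and 174 CPM. Control replicate 2 was the highest of all 9 libraries and the other Control libraries were the lowest, so the groups overlapped. The log2 fold change was 0.02 after K4 (interval -0.17 to 0.20, edgeR adjusted p = 0.93) and 0.11 after ketamine (interval -0.07 to 0.29, edgeR adjusted p = 0.41). Without Control replicate 2 the ketamine value was 0.23 and was called (edgeR adjusted p = 0.016). In deposited TPM every treated library (175 to 209) lay above every Control library (159 to 169), as 14.6% of genes tested did. The deposited FPKM, also per length, were 73.2, 84.3 and 73.8 for Control and 88.9, 75.4 and 79.2 for K4, which overlapped. Those of Ketamine (87.8, 84.5 and 87.4) lay above Control, narrowly so for Control replicate 2. With the length offset the log2 fold change was -0.02 after K4 and 0.04 after ketamine (edgeR adjusted p = 0.92 and 0.80).

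Among the phosphatases, Dusp6, which acts on ERK in the cytoplasm, was higher after ketamine in every library without passing the adjusted test. Its CPM (gene ID 116663) came to 30.4, 25.6 and 24.5 for Control, 37.7, 44.7 and 24.4 for K4, and 34.0, 34.7 and 42.8 for Ketamine. All 3 Ketamine libraries lay above Control, as 16.9% of genes tested did. In K4 replicate 3 the value was as low as in Control, and the groups overlapped. The log2 fold change was 0.47 after ketamine (SE 0.19, interval 0.04 to 0.91, edgeR adjusted p = 0.13) and 0.41 after K4 (SE 0.19, interval -0.03 to 0.85, edgeR adjusted p = 0.24). For Ketamine it was called by DESeq2 (adjusted p = 0.040) and in the fit of the 6 libraries alone (edgeR adjusted p = 0.021). It was also called in limma on log2(TPM + 1) (adjusted p = 0.044), a setting chosen after seeing the data. Without K4 replicate 3 it was called after K4 (log2 fold change 0.62, edgeR adjusted p = 0.041) and after ketamine (0.47, edgeR adjusted p = 0.019). The length offset left it at 0.42 and 0.48, with edgeR adjusted p of 0.28 and 0.18. Of 22 alternatives run, 4 called Dusp6 after ketamine and 18 did not, and after K4 1 called it and 21 did not.

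Dusp1, a nuclear phosphatase of several MAP kinases and itself an early response gene, varied widely within groups. Its libraries (gene ID 114856) read 37.2, 22.9 and 19.1 CPM for Control, 38.8, 55.9 and 21.0 for K4 and 30.2, 39.2 and 50.8 for Ketamine. Control replicate 1 was close to K4 replicate 1 and K4 replicate 3 to the low Control libraries, so all 3 groups overlapped. The group means were 26.4 ± 9.54, 38.6 ± 17.4 and 40.1 ± 10.3 CPM. Log2 fold changes of 0.55 after K4 (interval -0.46 to 1.56, edgeR adjusted p = 0.50) and 0.60 after ketamine (interval -0.41 to 1.62, edgeR adjusted p = 0.39) leave a wide range of sizes possible in either direction.

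The nuclear phosphatases Dusp4 and Dusp5, of which Dusp5 acts on ERK alone, were the lowest of the phosphatases. Dusp4 (gene ID 60587) had 54 to 145 counts per library. It read 2.51, 2.94 and 2.60 CPM for Control, 1.72, 4.43 and 2.09 for K4 and 1.87, 2.60 and 1.56 for Ketamine. K4 replicate 2 was the highest library and K4 replicate 1 among the lowest, and its log2 fold change was 0.04 after K4 (interval -0.63 to 0.71) and -0.42 after ketamine (interval -1.11 to 0.26). The sign for K4 rested on a single library, since it was -0.49 without K4 replicate 2. Dusp5 (gene ID 171109) had 92 to 154 counts per library, between 2.86 and 4.46 CPM, with overlapping groups and log2 fold changes of 0.24 and 0.21 (edgeR adjusted p = 0.49 and 0.50).

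Sprouty proteins, which block the step from receptor to Ras and Raf, gave 2 different pictures. Spry2 (gene ID 306141) read 48.0, 43.1 and 42.7 CPM for Control, 49.9, 49.96 and 48.9 for K4 and 54.4, 49.4 and 47.7 for Ketamine. Every K4 library lay above every Control library, as 13.3% of genes tested did, while Ketamine replicate 3 fell just below Control replicate 1. The differences were small, with log2 fold changes of 0.15 after K4 (SE 0.069, edgeR adjusted p = 0.20) and 0.18 after ketamine (SE 0.069, edgeR adjusted p = 0.092), and neither was called. Within K4 the SD of Spry2 was 0.617 CPM on a mean of 49.6, a coefficient of variation of 1.2%, the lowest among the 9 genes and 3 groups.

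Spry4 (gene ID 291610) was below every Control library in all Ketamine libraries, and of the K4 libraries only in replicate 3. It read 13.8, 13.99 and 14.6 CPM for Control, 14.6, 17.7 and 12.4 for K4 and 10.9, 11.4 and 11.6 for Ketamine. Ketamine lay below both other groups without overlap, whereas K4 replicates spanned the Control range. Below Control without overlap lay 18.1% of all genes tested. The log2 fold change for Ketamine was -0.32 (SE 0.12, interval -0.57 to -0.07, edgeR adjusted p = 0.079). Of 22 alternatives run, 20 did not call it. It was called in the fit of the 6 libraries alone (edgeR adjusted p = 0.0497) and without K4 replicate 2 (edgeR adjusted p = 0.042). Spry4 also has a long transcript, 5.43 kb, and the length offset gave -0.20 (edgeR adjusted p = 0.35). After K4 the value was 0.08 (interval -0.17 to 0.33, edgeR adjusted p = 0.73), and as low as -0.06 with a single library left out.

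Errfi1 (gene ID 313729), the inhibitor of EGF family receptors, differed little. Control libraries had 33.1, 34.0 and 30.8 CPM, K4 libraries 26.2, 35.1 and 30.7 CPM, and Ketamine libraries 28.6, 32.3 and 33.6 CPM. Both treated groups overlapped Control. The intervals, -0.30 to 0.13 after K4 and -0.26 to 0.17 after ketamine on the log2 scale, included 0, and neither comparison was called (edgeR adjusted p = 0.64 and 0.78).

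**Figure D4:**
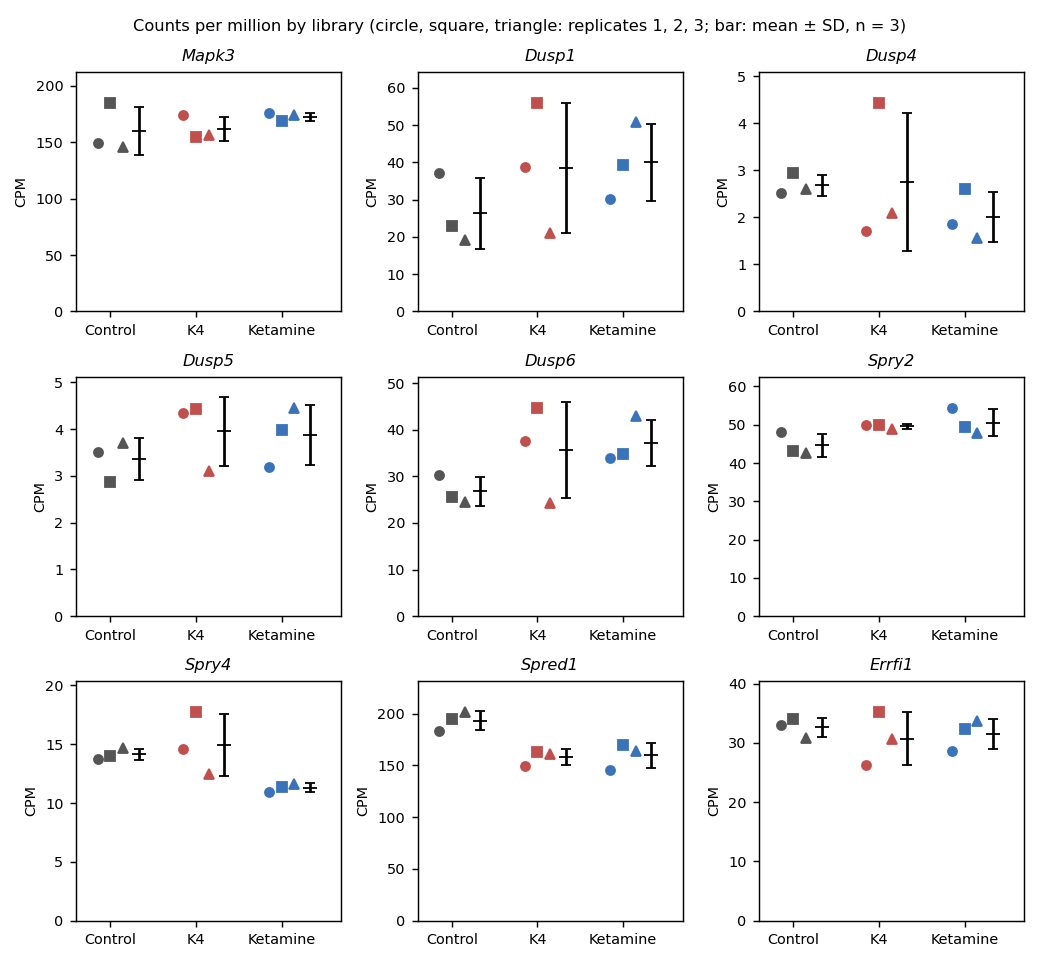
CPM of the 9 genes in each library, a panel per gene, with symbols for replicates and bars for the group mean ± SD (n = 3). Spred1 is lower in all treated libraries, Spry4 in the Ketamine libraries, and Dusp1 and Dusp6 are low in K4 replicate 3.

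K4 and Ketamine were set directly against each other to ask whether the treated groups differed. The difference is taken between their libraries, while Control libraries enter the filter, the scaling and the estimate of spread. None of the 9 genes was called, and none of the 18047 genes was (0%) by edgeR, with 1648 at an unadjusted p below 0.05. DESeq2 called 66 genes, none of them among the 9. Over all genes, the edgeR fit of the 6 libraries alone called 25 higher in K4 and 2 lower, none of them among the 9. Spry4 alone was under an unadjusted p of 0.05, at 14.9 ± 2.65 CPM in K4 and 11.3 ± 0.365 in Ketamine. Its log2 fold change was 0.40 (SE 0.12, interval 0.14 to 0.65, edgeR adjusted p = 0.34). All 3 K4 libraries lay above all 3 Ketamine libraries, as in 9.49% of genes tested (8.29% the other way round). The widest intervals were those of Dusp1 (-1.06 to 0.95) and Dusp4 (-0.23 to 1.16).

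The genes fell into steady and variable ones. Spread within groups was taken as the SD of log2 CPM about the group means and set beside the 500 genes nearest in mean level. Dusp1 had an SD of 0.55, above that of all of its 500 neighbours, whose median was 0.10. Dusp6 had 0.30 (above 98.8% of its neighbours, median 0.10) and Dusp4 0.46 (above 91.8%, median 0.27). In contrast Spry2 at 0.08, Spred1 at 0.09, Spry4 at 0.15 and Dusp5 at 0.24 were near the medians of their neighbours, 0.09, 0.08, 0.13 and 0.23. Mapk3 at 0.12 and Errfi1 at 0.15 were above 82.4% and 83.2% of theirs.

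Some members deviated in the same direction in K4 replicates 2 and 3, and not in every other library. In K4 replicate 3 the deviations from the group mean were -0.76 for Dusp1, -0.50 for Dusp6, -0.33 for Dusp5, -0.26 for Dusp4 and -0.25 for Spry4 on the log2 scale. In K4 replicate 2 the same 5 genes deviated by 0.64, 0.37, 0.18, 0.80 and 0.26. In K4 replicate 1 Dusp4 was at -0.54 while Dusp1, Dusp5 and Dusp6 were at 0.12, 0.15 and 0.13. In Ketamine replicate 3 Dusp1 was at 0.37 and Dusp4 at -0.32, in Control replicate 1 Dusp1 was at 0.55 and Dusp4 at -0.09, and in Control replicate 3 Dusp1 was at -0.41 and Dusp5 at 0.15. Dusp1 and Dusp6 deviated in the same direction in 8 of the 9 libraries, the exception being Ketamine replicate 2. The summed level of 20 activity-regulated early genes was 899, 1222 and 625 CPM in K4 and 695, 794 and 854 CPM in Ketamine, the order of the replicates that Dusp1 had in both groups. In Control the sum was nearly flat, at 732, 711 and 725 CPM, while Dusp1 ranged from 37.2 to 19.1 CPM, and Dusp4 in Ketamine was lowest in the replicate with the highest sum. Its part in the values of these genes was not tested.

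The genes nearest to each member were those of the smallest root mean square difference in log2 CPM, each centred on its own mean over the 9 libraries, among 13112 others. For Dusp1 these were Junb (0.13) and Nr4a1 (0.18), both activity-regulated transcription factors, while Dusp1 itself had an SD of 0.55 over the 9 libraries. Junb read 40.8, 32.8 and 27.3 CPM for Control, 53.8, 74.5 and 26.9 for K4 and 33.8, 49.6 and 62.1 for Ketamine. Its order of libraries within each group was that of Dusp1: replicate 1 highest in Control, replicate 2 in K4 and replicate 3 in Ketamine. Junb was picked for its likeness to Dusp1 in these same libraries, so the shared order is no separate evidence. Neither passed the test, with Junb at a log2 fold change of 0.62 after K4 (edgeR adjusted p = 0.41) and Nr4a1 at 0.64 (edgeR adjusted p = 0.37). Such a match is a description over 9 libraries that share their preparation and depth differences.

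**Figure D5:**
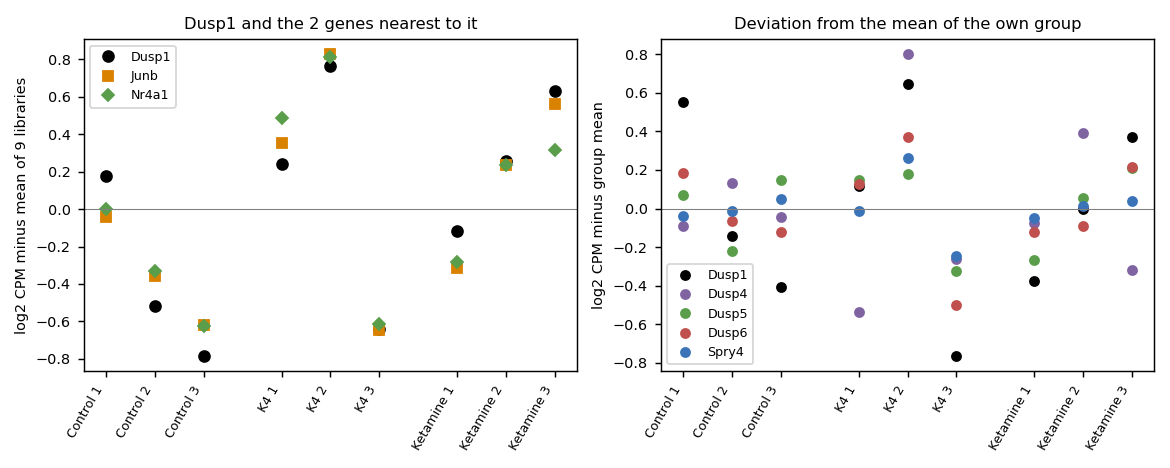
Left, log2 CPM of Dusp1, Junb and Nr4a1 minus each gene's mean over the 9 libraries, by library. Right, deviation of 5 inhibitors from the mean of their own group. At left Junb and Nr4a1, chosen for likeness to Dusp1, follow it with gaps, as in Ketamine replicate 3 (Dusp1 0.63, Nr4a1 0.31). At right K4 replicate 3 is the lowest of its group for 4 of the 5 genes.

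Nearest to Spred1 were Grb14, an adaptor that binds the insulin receptor (0.04), and Mmd (0.06). Grb14 had log2 fold changes of -0.25 and -0.21 (edgeR adjusted p = 0.081 and 0.087). Mmd had -0.20 after K4 (edgeR adjusted p = 0.069) and fell after ketamine (-0.19, edgeR adjusted p = 0.044). For Dusp4 they were Sbk1 (0.22) and the clock gene Per1 (0.23), for Dusp6 Cd3eap (0.15) and Barx2 (0.15), and for Spry4 Dlc1 (0.08) and Midn (0.09). Spry2 had Stard3 (0.05), Mapk3 had Ctnnal1 and Ubtd1 (both 0.04), Errfi1 had Inip and Mrpl51 (both 0.05), and Dusp5 had Ptges3l and Tm2d3 (both 0.10). For genes that vary little, such as Mapk3 and Spry2, a small distance is shared by many genes.

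Genes around the loop were read from lists along the pathway. Calls after K4 fell most without Control replicate 1 or any K4 library. Over all genes, 409 called higher and 686 lower became 50 and 124 without Control replicate 1. They became 89 and 150, 124 and 222, and 82 and 146 without K4 replicate 1, 2 or 3. Without Control replicate 1, none of the 12 genes named here as called after K4 and refitted was called (edgeR adjusted p from 0.0503 to 0.13), although their directions held. The other members of the inhibitor families, 12 genes, were not called after K4, where 6.07% of all genes were. After ketamine 2 of 12 were called lower, beside 9.75% of all genes called lower and 16.7% called in either direction. Those were Spred2, a relative of Spred1, which read 28.1, 26.8 and 30.7 CPM in Control and 23.0, 17.9 and 19.2 CPM in Ketamine, without overlap (log2 fold change -0.51, edgeR adjusted p = 0.0044), and Dusp8, a phosphatase of stress kinases, which fell by 0.23 (edgeR adjusted p = 0.031). Both calls remained with the length offset, at -0.64 and -0.25 (edgeR adjusted p = 0.0045 and 0.040). Spred2 stayed called in all 9 refits with a library dropped, and Dusp8 in 5, losing its call without Control replicate 1 or 3 or Ketamine replicate 2 or 3 (edgeR adjusted p from 0.058 to 0.13). After K4 Spry3 had the smallest p of this list (log2 fold change -0.28, edgeR adjusted p = 0.13). Between K4 and Ketamine the value of Spred2 was 0.35 (interval 0.14 to 0.57, edgeR adjusted p = 0.34).

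Upstream, among 22 receptors and adaptors that feed Ras, 5 fell and none rose after K4, and 8 fell and none rose after ketamine, with median log2 fold changes of -0.13 and -0.23. Those are 22.7% and 36.4% of the list, beside 3.8% and 9.75% of all genes called lower. Erbb4, a neuregulin receptor, went from 34.1 ± 3.36 CPM to 21.8 ± 0.836 after K4 and 14.5 ± 3.74 after ketamine (log2 fold changes -0.65 and -1.23, edgeR adjusted p = 0.023 and 0.00051). Of the adaptors, Frs2 fell by 0.26 and 0.39, Sos2 fell by 0.31 after K4, and Shc3, a neuronal adaptor, fell by 1.02 after ketamine. The BDNF receptor gene Ntrk2 fell by 0.49 and 0.70. With the length offset 1 of the 22 (Erbb4, edgeR adjusted p = 0.043) stayed lower after K4 and 3 after ketamine, namely Erbb4 (edgeR adjusted p = 0.0012), Shc3 (0.0053) and Ntrk2 (0.018). That is 4.55% and 13.6% of the list, beside 2.38% and 7.61% of all genes called in either direction with the offset. When single libraries were dropped, Sos2 stayed called after K4 in 7 of 9, Erbb4 and Ntrk2 in 5, each lost without any 1 of the K4 libraries, and Frs2 in 3. Erbb4, Frs2, Ntrk2 and Shc3 stayed called after ketamine in all 9. The astrocyte marker list shares Fgfr3 with this list and the precursor list shares Pdgfra, which was among the 8. Astrocyte and precursor markers were called lower in 6 of 9 and 4 of 7 cases after ketamine, and their part in these values was not tested.

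Of 20 growth factor ligands tested, 2 fell after K4 and 4 after ketamine, and none rose. These shares of 10% and 20% stand beside 3.8% and 9.75% of all genes called lower, and 6.07% and 16.7% called in either direction. The median log2 fold changes were -0.05 and -0.14. Pdgfa fell by 0.39 and 0.26, Fgf14, a member of the fibroblast growth factor family that is not secreted, fell by 0.53 and 0.52, and Igf1 and Fgf2 fell by 0.41 and 0.87 after ketamine. With each library left out in turn, Pdgfa stayed called in 5 of 9 fits after K4 and 2 of 9 after ketamine, Fgf14 in 5 and 8, Fgf2 in 4 of 9, and Igf1 in all 9. After ketamine the call for Fgf14 was lost without Ketamine replicate 2 (edgeR adjusted p = 0.057), that for Fgf2 without Control replicate 2 or 3, K4 replicate 2 or Ketamine replicate 2 or 3, and that for Pdgfa held only without Control replicate 3 or Ketamine replicate 3. With the length offset Igf1 was no longer called after ketamine (edgeR adjusted p = 0.078) and Fgf14 no longer after K4 (0.052), while Pdgfa stayed called in both comparisons (0.025 and 0.040).

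In the core from Ras to ERK, 28 genes with Mapk3 among them, 3 fell and 2 rose after K4, and 5 fell and 2 rose after ketamine. Called were thus 17.9% and 25% of the list, beside 6.07% and 16.7% of all genes, and with the length offset 3.57% and 14.3%, beside 2.38% and 7.61%. Nf1, which encodes neurofibromin, the Ras inactivator that Spred1 recruits, fell from 118 ± 6.77 CPM to 90.7 ± 2.71 after K4 and 77.5 ± 7.60 after ketamine (log2 fold changes -0.38 and -0.60, edgeR adjusted p = 0.013 and 0.00046). Ksr2, a scaffold for Raf and MEK, fell by 0.52 and 0.86. The GTPase gene Hras rose by 0.23 and 0.40, and Pebp1, which encodes an inhibitor of Raf, rose by 0.29 and 0.35. With the length offset Ksr2 alone stayed called after K4 (edgeR adjusted p = 0.049), and Nf1 was at -0.21 (edgeR adjusted p = 0.088). After ketamine Nf1 (-0.34, edgeR adjusted p = 0.0065), Ksr2 (-0.62) and Hras (0.27) stayed called, while Pebp1 did not (0.19, edgeR adjusted p = 0.082), and Rasal1, a gene of the same list, was called higher with the offset (0.27, edgeR adjusted p = 0.046). Nf1, Ksr2, Hras and Pebp1 stayed called after ketamine whichever library was left out, and after K4 in 6, 6, 4 and 5 of 9 fits.

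Downstream, among 20 ERK substrates and output factors, 1 fell after K4 (Creb1, by 0.34) and 3 after ketamine (Elk4, Creb1 and Rps6ka5, by 0.38, 0.27 and 0.26). These are 5% and 15% of the list, beside 3.8% and 9.75% of all genes called lower, and 6.07% and 16.7% called in either direction. Elk4 is a partner of the serum response factor, and Rps6ka5 a kinase that acts on chromatin and CREB. The offset for length ended these 4 calls. Among 20 activity-regulated early genes Egr3 alone was called (5% of the list), higher in both comparisons, from 70.9 ± 8.59 CPM to 112 ± 12.6 after K4 and 107 ± 14.3 after ketamine (log2 fold changes 0.65 and 0.59, edgeR adjusted p = 0.012 and 0.0059), and stayed called with the offset (0.70 and 0.66). The call after K4 was lost without Control replicate 1 (0.59, edgeR adjusted p = 0.0503), and the call after ketamine held in all 9 such fits. Creb1 kept its call in 8 of 9 fits after K4 and 7 of 9 after ketamine, where it was lost without Control replicate 1 or Ketamine replicate 2, and Rps6ka5 lost its call without Ketamine replicate 2 or 3. Between K4 and Ketamine no gene of these lists was called by edgeR. The smallest p of each list there belonged to Rps6ka1 (log2 fold change 0.44), Ksr2 (0.35), Fosl2 (1.14), Igf1 (0.32), Spred2 (0.35) and Erbb4 (0.58), with edgeR adjusted p from 0.32 to 0.38. All 6 were lower in Ketamine than in K4.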

How the data were processed

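Per the labels, total RNA of rat medial prefrontal cortex was made into stranded mRNA libraries, 3 each from Control, K4 and Ketamine. The submitters' processing notes name bcl2fastq 2.20.0, Trimmomatic, HISAT2 2.1.0, StringTie 2.1.3b and the build rn6; for the counting tool and its strand setting the sources used here give no name. The authors deposited a table of raw counts by gene, and FPKM and TPM in a file for each library.

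Genes passing edgeR 4.0.16's filter (count minimum 10, total minimum 15) were scaled by TMM and tested in one quasi-likelihood fit of all 9 libraries in R 4.3.3, with Benjamini-Hochberg adjustment over 18047 genes and calls at an adjusted p below 0.05. CPM are computed from the counts with these factors. The test was tried first on simulated data. Symbols were matched by gene ID to RefSeq (29216 IDs matched), which also restored 27 symbols that a spreadsheet had turned into dates. Transcript length was implied by counts over FPKM, and the length offset is each library's loess trend (span 0.3) of log2 CPM on log2 length. Alternatives were other scalings, no filter, a replicate block, the length offset, fits of 6 libraries, DESeq2 1.42.0, limma 3.58.1 on log2(FPKM + 1) or log2(FPKM + 0.1), leaving out mitochondrial genes, and each library left out. limma on log2(TPM + 1) was chosen after seeing the data. Named were all 9 members, up to 4 called genes per pathway list and comparison (or that of the smallest p), and the 2 nearest genes of each member, of which 1 is not reported here. Rasal1, Pdgfra and Fgfr3 were named after their values were seen. The members and lists were chosen with earlier results of these data known. Intervals cover the spread between libraries, and counts without molecular identifiers are not independent molecules.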

Additional observations from a re-analysis of the deposited data

How the results depend on the processing

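Spred1 kept its negative sign in K4 and Ketamine against Control under every alternative run. It also kept both calls under RLE and upper quartile scaling, without a filter, without mitochondrial genes and by DESeq2. The count of members called lower went from 1 to 0 in both comparisons with the length offset, with the length offset and replicate block, and in limma on log2(FPKM + 1), log2(FPKM + 0.1), log2(FPKM + 1) with no filter and log2(TPM + 1); the cause was not tested. In the fits of the 6 libraries of a comparison it was 0 for K4 and 2 for Ketamine, with 1 member higher in Ketamine, as by DESeq2 (1) and log2(TPM + 1) (1). With each library left out, members called ranged from 0 to 1 higher and 0 to 1 lower for K4, and 0 to 1 higher and 0 to 2 lower for Ketamine. No member was called between K4 and Ketamine in any alternative run.

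Small changes of unclear sign reversed. After K4, Dusp4 was -0.052 with the replicate block, -0.045 with the length offset, -0.13 with both, -0.0044 in limma on log2(FPKM + 1) with or without the filter and -0.036 on log2(FPKM + 0.1). Mapk3 was -0.022 with the length offset and -0.0199 with the block added. Errfi1 after K4 was 0.036 on log2(FPKM + 1), with or without the filter, 0.041 on log2(FPKM + 0.1) and 0.16 on log2(TPM + 1). After ketamine it was 0.0301 with the length offset, 0.026 with the block added, 0.0599 on log2(FPKM + 1) with or without the filter, 0.065 on log2(FPKM + 0.1) and 0.14 on log2(TPM + 1). On log2(TPM + 1), K4 against Ketamine gave 0.019 for Spry2, 0.041 for Spred1 and 0.019 for Errfi1. With each library left out, values after K4 ranged from -0.042 to 0.13 for Mapk3, -0.49 to 0.29 for Dusp4, -0.062 to 0.19 for Spry4 and -0.198 to 0.014 for Errfi1, and after ketamine from -0.0996 to 0.015 for Errfi1. K4 against Ketamine ranged from -0.42 to 0.24 for Dusp1, -0.068 to 0.71 for Dusp4, -0.092 to 0.18 for Dusp5, -0.26 to 0.15 for Dusp6, -0.066 to 0.031 for Spry2, -0.079 to 0.026 for Spred1 and -0.15 to 0.063 for Errfi1.

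Over all genes, 409 were called higher and 686 lower after K4, 1254 and 1759 after ketamine, and 0 between K4 and Ketamine. The length offset gave 217 and 213, 584 and 790, and 0. The length offset with replicate block gave 220 and 275, 545 and 826, and 1 higher. Upper quartile scaling gave 527 and 563, and 1587 and 1549. Leaving out mitochondrial genes gave 467 and 569, and 1369 and 1634. Fits of 6 libraries gave 144 and 308, 910 and 1384, and 25 and 2. DESeq2 gave 731 and 1155, 1504 and 2012, and 56 and 10. limma on log2(FPKM + 1) gave 503 and 215, 1690 and 988, and 1 higher; on log2(FPKM + 0.1) 505 and 208, 1698 and 984, and 1 higher; on log2(FPKM + 1) with no filter 5 and 2, 926 and 643, and 1 higher. limma on log2(TPM + 1) gave 943 and 75, 1419 and 421, and 2 higher. With no filter in edgeR 6 genes were higher in K4 than in Ketamine. With each library left out, 50 to 754 were higher and 124 to 1007 lower after K4, 425 to 1474 and 752 to 1833 after ketamine, and 0 to 27 higher in K4 than in Ketamine.

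Replicate numbers are shared between groups. Of 9 pairs with the same number 1 had a correlation of deviations over 0.1 (range 0.0024 to 0.106), against -0.157 to 0.069 for other pairs, and 7 of 9 libraries correlated best with their own number, a hint from the data and not the design. The numbers were therefore not taken as pairing. The replicate block gave 429 and 739 genes after K4, 1305 and 1886 after ketamine, and 1 higher between K4 and Ketamine, and left Spred1 called in both (edgeR adjusted p = 0.014 and 0.0072). Dusp4 had 54 to 145 counts per library and Dusp5 92 to 154; the part of depth in the width of their intervals was not tested.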
